A study of Mus musculus with 57 samples.

Results

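The genes followed here are 10 inflammatory cytokine and inflammasome genes, Il1a, Il1b, Il1rn, Il18, Il18bp, Tnf, Il6, Il10, Nlrp3 and Casp1, chosen by symbol from the 24941 symbols of a raw count table. The table covers macrophages sorted from mouse liver, monocytes from blood, and whole livers. All 10 were found, and for the 5 with more than 1 transcript the one with the most counts over all libraries was used. It holds 57 RNA-seq libraries of 16 groups.

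Interleukin-1 alpha (Il1a) and beta (Il1b) act on the same receptor, and the receptor antagonist encoded by Il1rn occupies that receptor without signalling. Interleukin-18 (Il18) is bound and neutralised by a secreted decoy, Il18bp. The precursors of interleukin-1 beta and interleukin-18 are cut to their active forms by caspase-1 (Casp1), which is switched on by inflammasomes such as the one built on the sensor Nlrp3. Tnf and Il6 encode pro-inflammatory cytokines induced through NF-kB in activated macrophages, and Il10 encodes a cytokine that restrains macrophage activation. Levels of mRNA show how much message is present and not how much cytokine is cut or released.

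The population set holds C57BL/6J cells, with 2 libraries for each of 6 populations. The populations on the NASH diet, a diet used to bring about fatty liver inflammation, are Kupffer cells (resident liver macrophages, gated F4/80-high and Tim4-positive), Kupffer niche recruited macrophages (KN-RM, F4/80-high and Tim4-negative), Ly6C-low and Ly6C-high recruited macrophages (Ly6CLow-RM and Ly6CHi-RM, both CD11b-high) and Ly6C-high monocytes from blood. The only population from a control diet is the healthy Kupffer cells. The labels do not give the weeks on diet for this set. The time course holds Tim4-positive C57BL/6J Kupffer cells from the control diet (week 0, n = 3) and from week 1 (n = 2), week 4 (n = 2), week 10 (n = 3), week 20 (n = 3) and week 30 (n = 4) of the NASH diet. Another set holds the KN-RM gate after 20 weeks of the NASH diet from mice that carry floxed alleles of both LXR genes (alpha and beta). Their libraries are labelled as positive for Clec4f-Cre (n = 3) or as Cre negative (n = 3), Clec4f being a gene expressed in Kupffer cells. The whole livers come from mice labelled Clec4f-Cre DTR positive (n = 12) or negative (n = 10), all fed the CDAHFD NASH diet for 4 weeks. DTR is the diphtheria toxin receptor, and the labels do not say whether the toxin was given.

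Library totals, in units of 1e6 counts, ran from 12.4 to 22.7 in the population set, from 10.5 to 27 in the time course, from 2.32 to 5.09 in the LXR set and from 5.39 to 9.94 in whole liver. Levels are given as CPM, counts per 1e6 counts scaled by TMM within each set, so a level is compared only within its set. Kupffer cell markers (7 genes, summed) reached 24100 to 27000 CPM in NASH diet Kupffer cells, 25200 to 33600 CPM in healthy Kupffer cells, 13500 to 15700 CPM in KN-RM and 290 to 336 CPM in blood monocytes. Ly6c2 ran from 805 to 917 CPM in blood monocytes and was at most 2.2 CPM in the Kupffer cells of this set. Timd4, which encodes Tim4, was lower in NASH diet Kupffer cells (263 and 164 CPM) than in healthy ones (1010 and 759 CPM). In the LXR set the Tim4-negative gate held 17.2, 304 and 94.3 CPM of Timd4 in Cre-positive libraries, against 3.52, 5.71 and 16.4 CPM in Cre-negative libraries. A gene is called here when its adjusted p from edgeR's quasi-likelihood test (Benjamini-Hochberg over all genes of the fit) is under 0.05. The words rose, fell, higher and lower with a fold refer to called genes.

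Il1a, Il1b and Il1rn lie on mouse chromosome 2, with mm10 exons between chr2:129299610-129309972 (Il1a, minus strand), chr2:129364578-129371139 (Il1b, minus strand) and chr2:24345371-24351491 (Il1rn, plus strand). Il6 lies at chr5:30013114-30019975, Il18bp at chr7:102015077-102018155, Il18 at chr9:50554700-50581841, Casp1 at chr9:5298517-5307281, Nlrp3 at chr11:59542686-59566953, Tnf at chr17:35199367-35202007 and Il10 at chr1:131019845-131024970. Whether reads were counted by strand is not given in the sources used here. Il1a overlaps Gm14023, Il1b overlaps Il1bos, and Il18 overlaps Bco2 and Tex12 on the opposite strand, so reads of these pairs may not be told apart.

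Il1a, Il1b, Il1rn and Il6 changed on the diet in the population set and at both 20 and 30 weeks, and their promoters are shown for that reason, Il6 for its pair of motifs in particular. Each run is 250 bases before to 50 bases after a RefSeq start on GRCm38.p6, read 5′ to 3′ on the gene's strand. Capitals mark matches, on either strand, to 5 motifs. They are the box spelled TATAAA, the AP-1 motif spelled TGANTCA, the PU.1 motif spelled GAGGAAGT, the NF-kB consensus and the interferon-stimulated response element. The matches shown do not overlap.
Il1b, chr2:129371090-129371389, minus strand: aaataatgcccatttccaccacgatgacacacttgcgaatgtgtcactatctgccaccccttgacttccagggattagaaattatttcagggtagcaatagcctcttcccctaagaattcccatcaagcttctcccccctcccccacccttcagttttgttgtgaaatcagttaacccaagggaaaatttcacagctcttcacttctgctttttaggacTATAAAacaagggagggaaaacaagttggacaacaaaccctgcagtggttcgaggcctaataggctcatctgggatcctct
Il1a, chr2:129309923-129310222, minus strand: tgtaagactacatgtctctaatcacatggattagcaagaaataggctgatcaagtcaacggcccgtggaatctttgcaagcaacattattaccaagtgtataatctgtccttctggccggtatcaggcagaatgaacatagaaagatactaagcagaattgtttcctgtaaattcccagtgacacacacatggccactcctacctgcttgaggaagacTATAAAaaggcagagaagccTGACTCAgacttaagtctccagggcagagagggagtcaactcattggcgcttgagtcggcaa
Il1rn, chr2:24345121-24345420, plus strand: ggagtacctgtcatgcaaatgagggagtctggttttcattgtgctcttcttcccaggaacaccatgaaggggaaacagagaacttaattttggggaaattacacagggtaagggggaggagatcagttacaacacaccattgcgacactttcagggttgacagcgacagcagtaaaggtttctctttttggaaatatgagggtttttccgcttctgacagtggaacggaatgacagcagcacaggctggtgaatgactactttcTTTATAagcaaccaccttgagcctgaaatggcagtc
Il6, chr5:30012864-30013163, plus strand: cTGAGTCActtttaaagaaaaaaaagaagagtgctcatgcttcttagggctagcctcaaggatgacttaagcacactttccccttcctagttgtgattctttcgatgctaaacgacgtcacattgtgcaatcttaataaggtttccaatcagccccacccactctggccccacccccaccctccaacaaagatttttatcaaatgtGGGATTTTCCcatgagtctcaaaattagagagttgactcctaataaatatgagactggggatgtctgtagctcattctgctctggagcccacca
The Il6 window holds an NF-kB match that begins 44 bases before the start and an AP-1 match 249 bases before it. The Il1a window holds a TATA box 32 bases before the start and an AP-1 match 12 bases before it, and the Il1b window a TATA box 31 bases before the start. In the Il1rn window the one match, to the TATA box on the other strand, begins 14 bases after the start. Il1rn has 3 listed starts, and the window shown belongs to the transcript counted here. The window of the upstream start, whose transcript has 96.3% as many counts over largely shared exons, holds an AP-1 match 141 bases before that start, and the window of the remaining start holds none of the 5 motifs. Among 32851 promoter windows of this length, 8.46% hold an NF-kB match, 7.81% AP-1, 3.44% the interferon element, 3.2% PU.1 and 13.6% a TATA box. Windows of 9 of the 10 genes were matched by symbol, and Il10 was not. These matches describe letters and not binding.

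On the NASH diet Kupffer cells held less message for both interleukin-1 cytokines and more for their antagonist. In the population set 5 of the 10 genes changed, where 20.7% of the 14407 genes tested did. The median log2 change of the 10 was -0.49 and that of all genes 0.

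Il1b had 80.6 and 71 CPM in NASH diet Kupffer cells, against 377 and 294 CPM in healthy Kupffer cells. The groups lay far apart, and Il1b fell 4.43-fold (log2 change -2.15 ± 0.18 SE, adjusted p = 2.26e-05, edgeR). Il1rn moved the other way, with 209 and 197 CPM in NASH diet Kupffer cells and 55.5 and 43.6 CPM in healthy ones. It rose 4.1-fold (2.04 ± 0.21, adjusted p = 8.99e-05).

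Il1a reached 67.7 and 45.8 CPM in NASH diet Kupffer cells, against 119 and 85.4 CPM in healthy Kupffer cells, and fell 1.8-fold (adjusted p = 0.0217). Nlrp3 had 126 and 91.4 CPM in NASH diet Kupffer cells and 211 and 155 CPM in healthy Kupffer cells and fell 1.69-fold (adjusted p = 0.0241). For both genes the groups did not overlap, but the call was lost without 1 library, with adjusted p = 0.142 for Il1a and 0.149 for Nlrp3 without the first healthy library, and 0.17 and 0.171 without the second NASH diet library. Il6 rested on few reads, 10 and 0 counts in NASH diet Kupffer cells against 99 and 56 counts in healthy Kupffer cells. It fell in the fit (log2 -3.72 ± 1.09, adjusted p = 0.0376), a call lost without either healthy library or without the second NASH diet library (adjusted p = 0.131, 0.0907 and 0.177) and with DESeq2 (adjusted p = 0.301).

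The other 5 genes did not pass the test. Il18 had 63.2 and 45.4 CPM in NASH diet Kupffer cells and 80.7 and 69.2 CPM in healthy Kupffer cells, with adjusted p = 0.0877. Casp1 had 43.3 and 33.6 CPM in NASH diet Kupffer cells and 51.3 and 41.9 CPM in healthy ones, and the ranges overlapped. Il18bp differed by 0.05 ± 0.18 on the log2 scale, Tnf by 0.43 ± 0.49 and Il10 by -0.51 ± 0.57, and for Tnf and Il10 the SE was larger than the difference.

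Markers of other cell types moved with these changes. Sinusoidal endothelial markers (10 genes) summed to 854 to 856 CPM in NASH diet Kupffer cells and 1300 to 1310 CPM in healthy Kupffer cells, with 7 of 10 called lower and 1 higher. Ly6C-low monocyte markers summed to 750 to 907 CPM in NASH diet Kupffer cells and 1760 to 2210 CPM in healthy ones, with 3 of 6 called lower and 1 higher, and hepatocyte markers to 144 to 454 CPM against 670 to 1020 CPM, with 2 of 10 called lower. Cholangiocyte markers summed to 70.9 to 221 CPM in NASH diet Kupffer cells and 1.39 to 1.42 CPM in healthy ones, where Cldn7 was at 0, with 3 of 6 called higher. That list holds Krt19, Krt7, Epcam, Sox9, Cldn7 and Spp1, and Spp1 is also used as a marker of scar-associated macrophages. Its sum therefore need not come from bile duct cells. T and NK cell markers summed to 20.3 to 33.3 CPM in NASH diet Kupffer cells and 7.76 to 8.65 CPM in healthy ones, with 6 of 9 tested called higher. Their part in the changes of the cytokine genes was not tested. In sorted bulk samples, fewer cells with a message and less message per cell cannot be told apart.

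**Figure D1:**
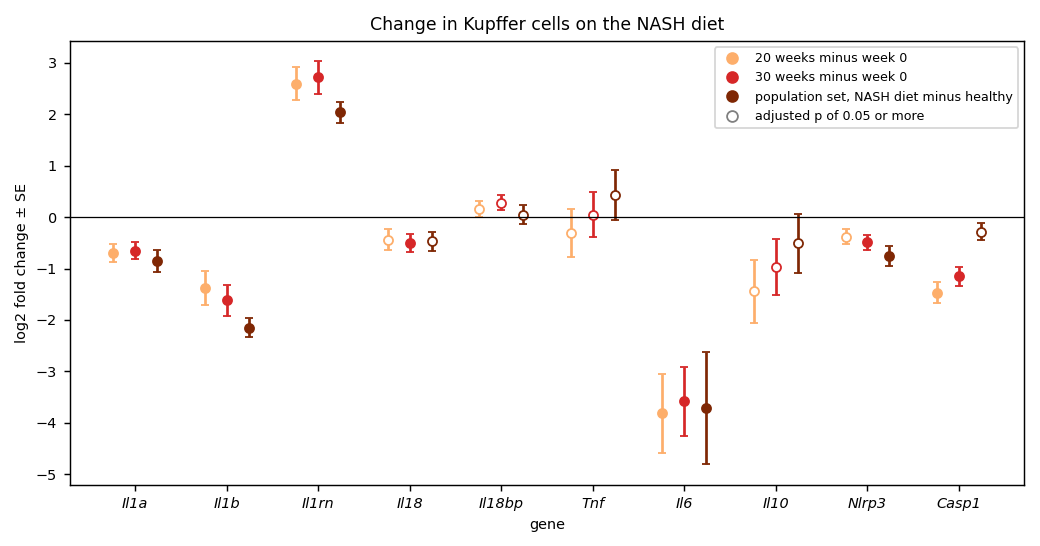
Log2 fold change with its SE (y axis) for each of the 10 genes (x axis) in Kupffer cells, at 20 weeks and 30 weeks minus week 0 and in the population set for NASH diet minus healthy, with open points for an adjusted p of 0.05 or more. Il1rn is the only gene with a called rise in these comparisons, and Il6 and Il1b have the largest called falls in the population set.

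The time course showed Il1b and Il1rn moving apart. Relative to week 0, 1 of the 10 genes was called at week 1 (background 16.0% of all genes), 0 at week 4 (8.54%), 2 at week 10 (19.1%), 5 at week 20 (34.7%) and 7 at week 30 (30.5%). The share at 30 weeks was thus 7 of 10 against 30.5% of all genes, while the shares of the first 10 weeks were close to or under the background. At week 4, where edgeR called none, 3 genes had an unadjusted p under 0.05 and DESeq2 called 2 (Il1b and Casp1). All 5 comparisons share the week 0 libraries.

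Il1rn had 54.8, 57.9 and 62 CPM at week 0, 97 and 128 CPM at week 1, 106 and 83.5 CPM at week 4, 242, 163 and 77.2 CPM at week 10, 400, 271 and 386 CPM at week 20, and 374, 327, 548 and 282 CPM at week 30. Every library on the diet was above every week 0 library, and the libraries of weeks 20 and 30 were above all earlier ones. It rose 2.76-fold at week 10 (adjusted p = 0.00507), 6.05-fold at week 20 (2.94e-05) and 6.58-fold at week 30 (1.34e-05).

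Il1b had 165, 91.1 and 294 CPM at week 0, 139 and 77.9 CPM at week 1, 82.9 and 86.1 CPM at week 4, 80.8, 105 and 69.5 CPM at week 10, 79.3, 55.7 and 76.9 CPM at week 20, and 69.1, 57.8, 70.5 and 40.7 CPM at week 30. The week 0 libraries spread more than 3-fold among themselves, yet all 3 were above every library of weeks 4, 20 and 30. Il1b fell 2.15-fold at week 10 (adjusted p = 0.0282), 2.59-fold at week 20 (0.00482) and 3.08-fold at week 30 (0.000861). The call at week 10 was lost without week 0 library 3 (adjusted p = 0.195), without week 10 library 1 or 3 (0.0803 and 0.0846), and with the 2 groups alone (0.0768).

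Il1a was at its highest at week 1, with 154 and 111 CPM, beside 109, 73.8 and 95.9 CPM at week 0, and ran from 45.4 to 65.1 CPM at week 20 and from 51.6 to 66.9 CPM at week 30. It fell 1.62-fold at week 20 (adjusted p = 0.0082) and 1.57-fold at week 30 (0.00855), and at week 30 it was not called when the first week 0 library was left out (0.0503). Il6 had 6.05, 5.68 and 7.23 CPM at week 0, 4.43 and 2.28 CPM at week 1, 2.88 and 1.8 CPM at week 4, 5.35, 4.35 and 1.33 CPM at week 10, 0.317, 0.74 and 0.197 CPM at week 20 and 0.097, 0.561, 1.34 and 0.108 CPM at week 30. The libraries of weeks 1 to 10 were all below week 0 without a call. The late libraries, with 2 to 25 counts each, stood clear of week 0, and Il6 fell 14.1-fold at week 20 (adjusted p = 0.00133) and 11.9-fold at week 30 (0.000864).

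**Figure D2:**
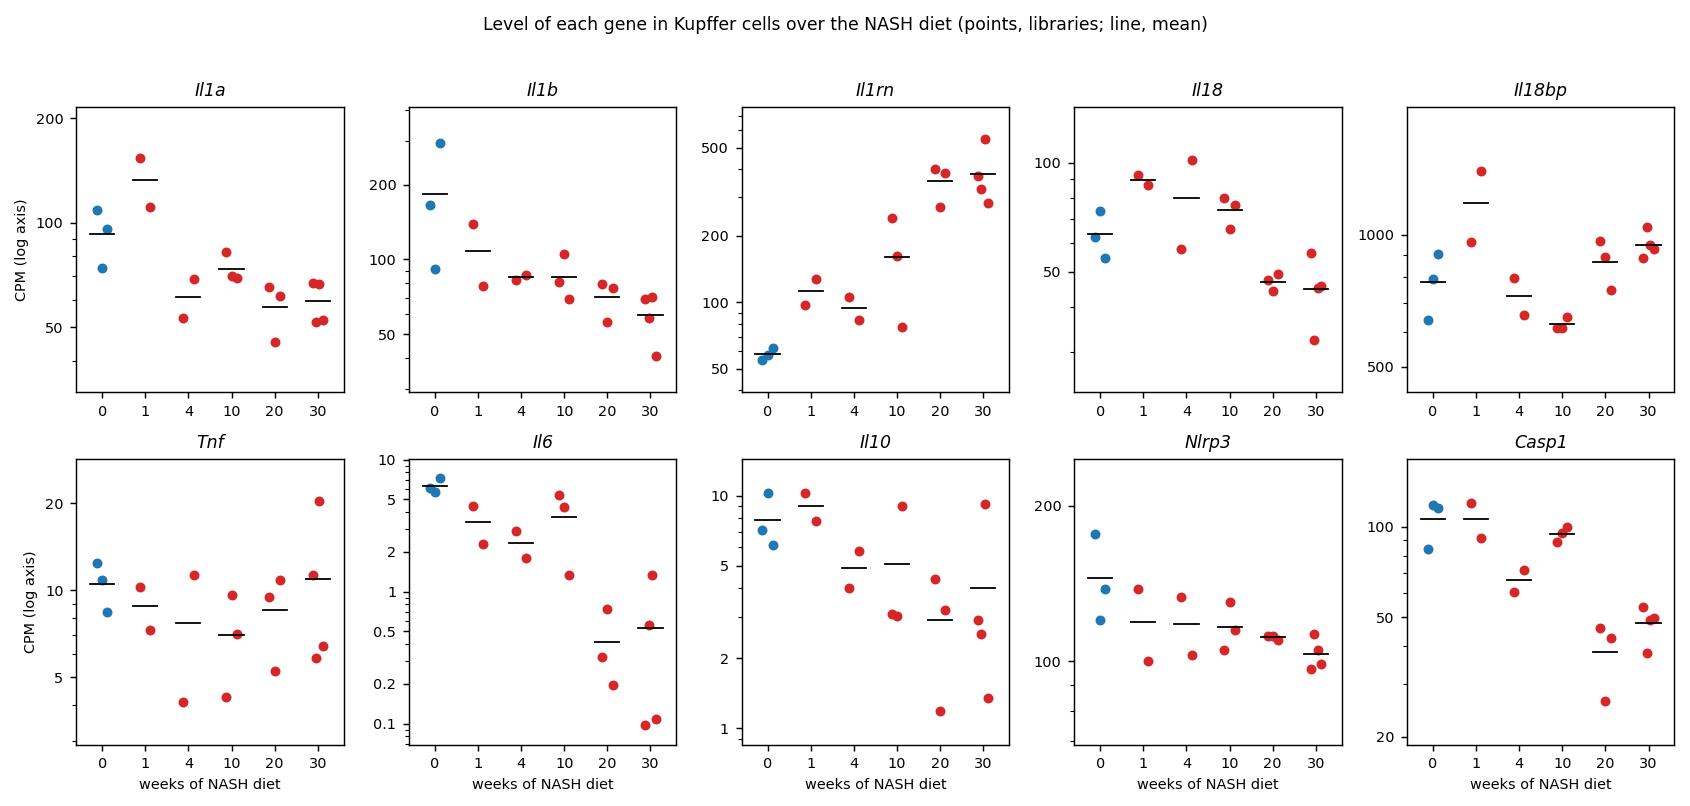
CPM on a log axis (y) of the 10 genes in Tim4-positive Kupffer cells against weeks of NASH diet (x), with a point per library and a line at the mean of each time. Il1rn climbs to between 271 and 548 CPM at 20 and 30 weeks. Casp1 is lower at week 4 (60.6 and 71.8 CPM) than at weeks 0, 1 and 10 and lowest at weeks 20 and 30. Il6 is below week 0 at every later time and under 1.5 CPM at weeks 20 and 30. Tnf spreads widely at each time from week 4 (4.09 and 11.3 CPM there), and Il10 at each time from week 10.

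Casp1 was called lower at weeks 20 and 30 and Nlrp3 at week 30. Casp1 had 84.3, 118 and 115 CPM at week 0, 120 and 91.9 CPM at week 1, 60.6 and 71.8 CPM at week 4, 88.6, 95.3 and 99.5 CPM at week 10, 46.1, 26.4 and 42.6 CPM at week 20, and 54.2, 38.1, 49.1 and 49.6 CPM at week 30. Both week 4 libraries were below every library of weeks 0, 1 and 10, a difference that edgeR did not call (log2 -0.68 ± 0.22, adjusted p = 0.0691) and DESeq2 did. All 7 libraries of weeks 20 and 30 were below every earlier library, the fall being 2.77-fold at week 20 (adjusted p = 5.39e-05) and 2.22-fold at week 30 (0.000179). Nlrp3 had 96.6, 113, 105 and 98.9 CPM at week 30, against 176, 120 and 138 CPM at week 0, and fell 1.4-fold (adjusted p = 0.0152), without a call when the first week 0 library was left out (0.106).

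Il18 fell 1.41-fold at week 30 at the edge of the threshold (adjusted p = 0.0494), with 56.3, 32.5, 45.1 and 45.8 CPM at week 30 and 62.5, 73.6 and 54.6 CPM at week 0. The groups overlapped, and the call was lost in 5 of the 7 fits that left out 1 library (without week 0 library 1 or 2, or week 30 library 2, 3 or 4), where adjusted p ran from 0.0849 to 0.187, and with RLE scaling (0.0562). Il18bp, its decoy, rose 1.52-fold at week 1, with 961 and 1400 CPM there and 640, 793 and 906 CPM at week 0 (adjusted p = 0.0268). That call was lost without the first or second week 0 library (0.0884 and 0.0533) or the second week 1 library (0.413). At week 30 Il18bp differed by 0.28 ± 0.15 on the log2 scale and was not called. Tnf and Il10 were called at no time, Tnf with 11.3, 5.81, 20.4 and 6.39 CPM at week 30 and 12.4, 10.9 and 8.38 CPM at week 0.

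Over the 14 libraries of weeks 1 to 30, 5 of the 10 genes followed log2 weeks (background 22.1%), Il1rn upward (0.42 ± 0.08 log2 per doubling of time, adjusted p = 0.00214) and Il1a (-0.21), Il18 (-0.22), Casp1 (-0.25) and Il1b (-0.16) downward. Without week 1 the calls were 2, and of the slopes that lost theirs Il1a was at -0.06 (adjusted p = 0.604), while Il1b (-0.19, 0.128) and Casp1 (-0.32, 0.111) were at least as steep as with all times. Without week 30 the call of Il1a was the only one left, and the slopes of Il1rn (0.38, adjusted p = 0.0507), Il18 (-0.19, 0.0743), Casp1 (-0.24, 0.141) and Il1b (-0.13, 0.192) stayed near those with all times. Without the first week 1 library the slope of Casp1 was -0.24 (adjusted p = 0.0675) and that of Il1b -0.11 (0.227), neither called.

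Hepatocyte markers in the sorted Kupffer cells summed to 48.2 to 149 CPM at week 0, 3370 to 5380 CPM at week 1, 2040 to 2180 CPM at week 4, 628 to 2930 CPM at week 10, 164 to 883 CPM at week 20 and 252 to 959 CPM at week 30. Sinusoidal endothelial markers summed to 722 to 1050 CPM at week 30 against 1220 to 2470 CPM at week 0, with 7 of 10 called lower. Stellate cell markers summed to 118 to 265 CPM at week 30 and 42 to 69.9 CPM at week 0, with 5 of 8 called higher. Cholangiocyte markers, Spp1 among them, summed to 106 to 288 CPM at week 30 and 1.73 to 15 CPM at week 0, with 1 of 6 called higher. Ly6C-low monocyte markers summed to 636 to 998 CPM at week 30 and 1440 to 1770 CPM at week 0, with 3 of 6 called lower and 2 higher. Kupffer cell markers summed to 16200 to 22400 CPM at week 30 and 21400 to 28100 CPM at week 0. The part of these shifts in the results was not tested.

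The diet effect in the population set was set against that at 30 weeks in a joint fit. None of the 10 genes was called as different between the sets (background 4.66%, 1 gene with an unadjusted p under 0.05, 1 call in DESeq2). That gene was Casp1, whose log2 change was less negative in the population set, by 0.89 ± 0.26 (adjusted p = 0.0685), with 0.0192 when the first week 0 library was left out. The other 9 differences ran from -0.66 ± 0.31 (Il1rn) to 0.48 ± 0.88 (Il10).

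Per length, the antagonist overtook the cytokine. The TPM of Il1rn was 1.41 and 1.51 times that of Il1b in NASH diet Kupffer cells, against 0.0796 and 0.0803 times in healthy Kupffer cells. In the time course the ratio had a median of 0.18 at week 0, 0.633 at week 1, 0.609 at week 4, 0.841 at week 10, 2.71 at week 20 and 3.41 at week 30. All 7 libraries of weeks 20 and 30 were at 2.63 or more, and all 3 of week 0 were at 0.344 or less. The ratio of Il18bp to Il18 stayed above 5 in every Kupffer cell library of both sets.

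**Figure D3:**
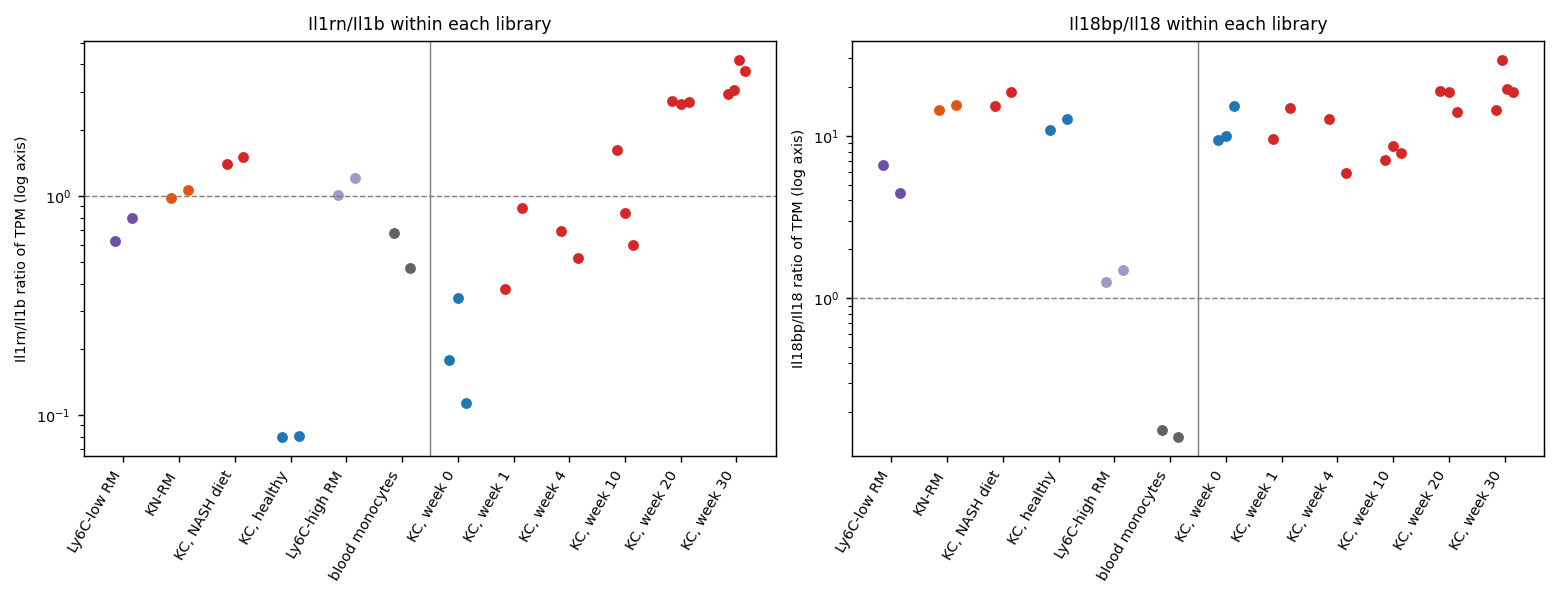
Ratio of TPM within each library (y, log axis) for Il1rn over Il1b (left) and Il18bp over Il18 (right), by population and by week (x), with a point per library and a dashed line at 1. The Il1rn to Il1b ratio is 0.0796 and 0.0803 in healthy Kupffer cells and 2.63 or more at 20 and 30 weeks, and the Il18bp to Il18 ratio is below 1 only in blood monocytes.

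Il1a and Il18bp were highest in the F4/80-high gates, Tim4-positive or not. KN-RM differed from NASH diet Kupffer cells in 0 of the 10 genes, where 0.534% of all genes were called. DESeq2 and limma also called 0, and 1 gene had an unadjusted p under 0.05, Il1rn, with 134 and 150 CPM in KN-RM and 209 and 197 CPM in NASH diet Kupffer cells (log2 -0.52 ± 0.2, adjusted p = 0.428). For Il1b the difference was -0.02 ± 0.17, for Nlrp3 0.06 ± 0.2 and for Casp1 0.09 ± 0.16.

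Between KN-RM and blood Ly6C-high monocytes 7 of the 10 genes changed (background 60.4%), 6 upward. Il18bp had 792 and 740 CPM in KN-RM, against 3.13 and 3.58 CPM in blood monocytes, a 230-fold difference (adjusted p = 1.58e-09). Il1a had 50 and 41.6 CPM in KN-RM and 0.332 and 0.651 CPM in blood monocytes, 99.2-fold higher (adjusted p = 4.79e-08) on a base of 7 and 8 counts. Il10 had 6.34 and 2.21 CPM in KN-RM, where 148 counts stood against 3 counts in blood monocytes, a ratio of 49.8 with a 95% counting interval from 16.7 to 244. Hepatocyte markers summed to 98.8 to 420 CPM in KN-RM and 1.14 to 1.38 CPM in blood monocytes, with 10 of 10 called higher. Stellate cell markers summed to 151 to 392 CPM against 2.99 to 3.34 CPM, with 8 of 8 called higher. The part of RNA from other liver cells in these differences was not tested.

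Il1b (4.1-fold), Il1rn (7.48-fold) and Il18 (2.24-fold) were also higher in KN-RM than in blood. Il6 had 14 counts in KN-RM and 0 in blood monocytes, a ratio of 4.71 with blood set to 3 counts over both libraries. It was not called (adjusted p = 0.0625). Casp1 went the other way, with 40.3 and 41.4 CPM in KN-RM and 89.2 and 89 CPM in blood monocytes, 2.18-fold lower (adjusted p = 0.000108). Blood monocytes thus had the highest Casp1 of the 6 populations, and the other 5 ran from 33 to 51.3 CPM with overlapping neighbours.

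Ly6CHi-RM, the liver macrophages closest to blood monocytes by Ly6c2 (367 and 282 CPM), held 5 changed genes relative to blood monocytes (background 48.6%). Il1rn had 127 and 158 CPM in Ly6CHi-RM, against 19.1 and 18.8 CPM in blood monocytes, 7.51-fold higher (adjusted p = 2e-06). Il1b was 3.79-fold higher (68 and 70.5 CPM in Ly6CHi-RM, 15.3 and 21.6 CPM in blood), Il1a 16-fold and Il18bp 7.52-fold, while Casp1 was 2.09-fold lower. Hepatocyte markers summed to 1470 to 4100 CPM in Ly6CHi-RM and 1.14 to 1.38 CPM in blood monocytes, where 7 of 10 were at 0 counts, and stellate cell markers to 531 to 633 CPM against 2.99 to 3.34 CPM. What RNA from other liver cells added was not tested.

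**Figure D4:**
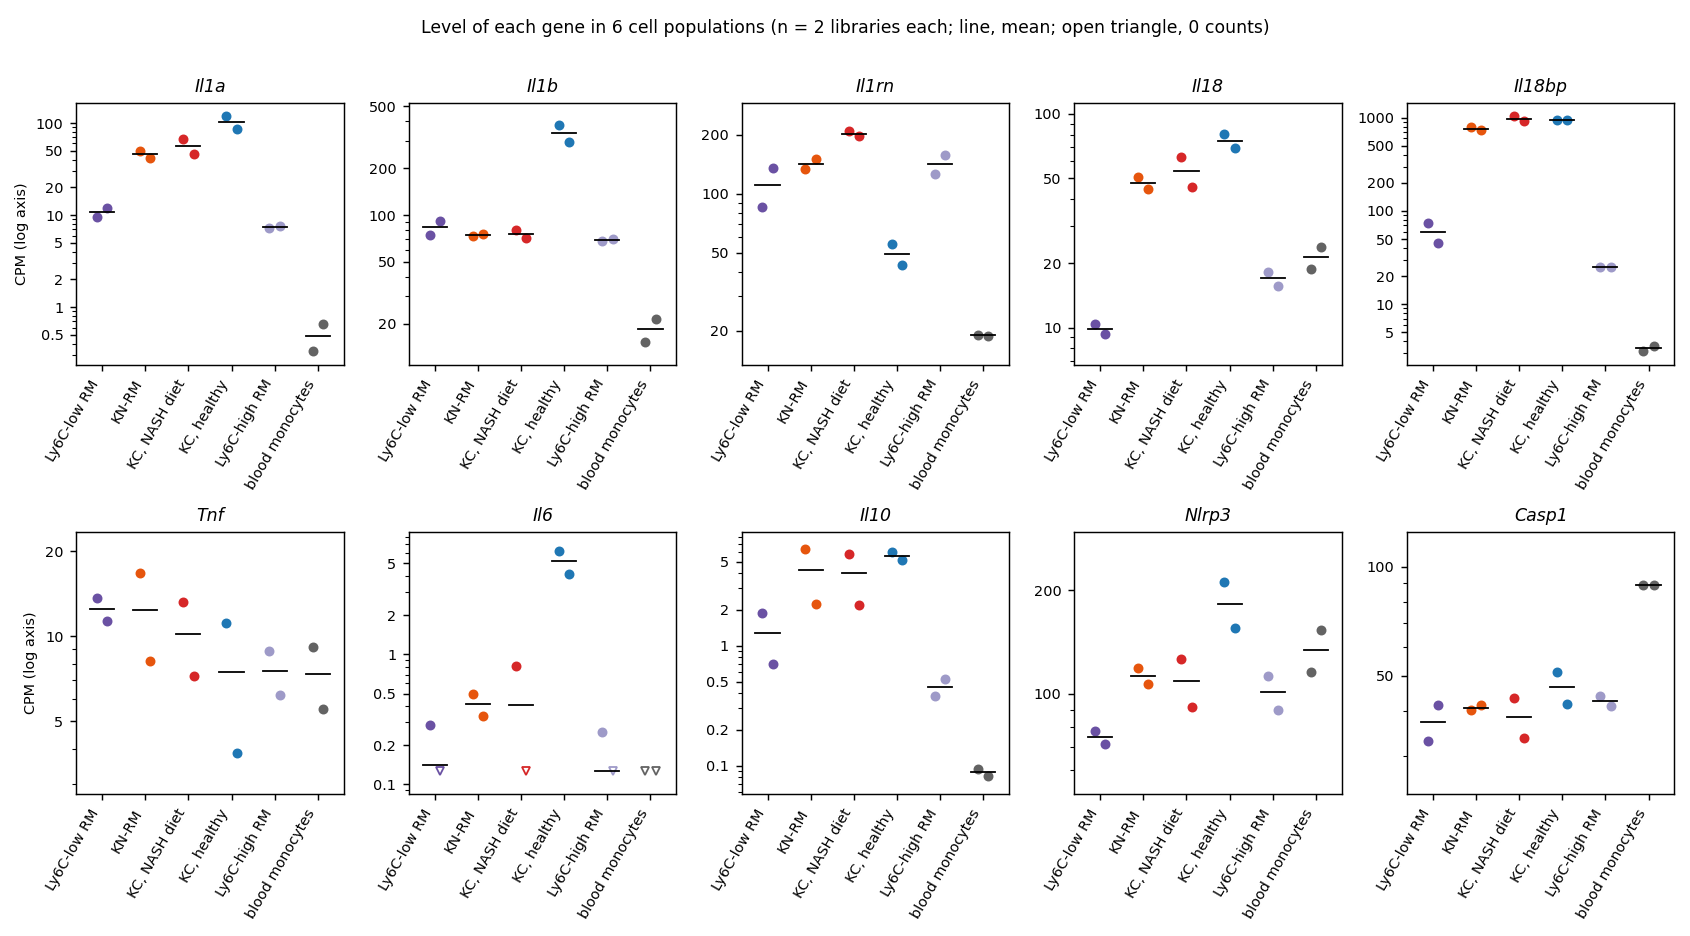
CPM on a log axis (y) of the 10 genes in the 6 populations of the first set (x), with a point per library, a line at the mean and an open triangle for 0 counts. Il18bp and Il1a are highest in the 3 F4/80-high groups, Il1b is high in healthy Kupffer cells alone, and Casp1 is highest in blood monocytes.

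Ly6CLow-RM, recruited cells outside the F4/80-high gate, had lower levels of 5 genes than KN-RM and higher levels of none (background 33.3%). Il18bp had 74.5 and 45.2 CPM in Ly6CLow-RM and 792 and 740 CPM in KN-RM, 12.8-fold lower (adjusted p = 6.2e-07). Il18 was 4.81-fold lower (10.4 and 9.39 CPM in Ly6CLow-RM, 50.8 and 44.5 CPM in KN-RM, adjusted p = 9.95e-06) and Il1a 4.27-fold lower (9.55 and 12 CPM in Ly6CLow-RM, 50 and 41.6 CPM in KN-RM, adjusted p = 7.19e-05). These gaps were several times the spread within each pair of libraries.

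Il10 (3.24-fold) and Nlrp3 (1.51-fold) were called lower near the threshold, with adjusted p of 0.0494 and 0.0424. Il10 lost its call without the first KN-RM library (adjusted p = 0.499) or the second Ly6CLow-RM library (0.223), and Nlrp3 without any 1 of the 4 libraries (0.078 to 0.207). Both also lost it with RLE scaling (0.0516 and 0.0556). Il1b, with 74.3 and 92.3 CPM in Ly6CLow-RM and 73.7 and 76 CPM in KN-RM, was level within the spread (0.15 ± 0.17). Kupffer cell markers summed to 735 to 1080 CPM in Ly6CLow-RM and 13500 to 15700 CPM in KN-RM, and dendritic cell markers to 457 to 477 CPM in Ly6CLow-RM and 58.1 to 60.5 CPM in KN-RM. The part of the dendritic cell signal was not tested.

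Ly6CLow-RM differed from Ly6CHi-RM in 2 genes (background 25.7%). Il18bp was 2.4-fold higher (74.5 and 45.2 CPM in Ly6CLow-RM, 24.9 and 25.2 CPM in Ly6CHi-RM, adjusted p = 0.00102). Il18 was 1.72-fold lower (10.4 and 9.39 CPM in Ly6CLow-RM, 18.3 and 15.7 CPM in Ly6CHi-RM, adjusted p = 0.0131), without a call when the first Ly6CHi-RM library or either Ly6CLow-RM library was left out (0.0775, 0.0589 and 0.0653). Il18 and its decoy thus differed in opposite directions between these recruited cells. Hepatocyte markers summed to 149 to 363 CPM in Ly6CLow-RM and 1470 to 4100 CPM in Ly6CHi-RM, with 10 of 10 called lower, and neutrophil markers to 165 to 191 CPM against 425 to 481 CPM, with 8 of 10 tested called lower and Ly6g at 0 in Ly6CLow-RM. Dendritic cell markers summed to 457 to 477 CPM in Ly6CLow-RM and 129 to 146 CPM in Ly6CHi-RM, with 6 of 8 called higher. The part of these markers in the differences was not tested. Per length, Il18bp was 4.45 and 6.65 times Il18 in Ly6CLow-RM, 1.25 and 1.48 times in Ly6CHi-RM, and 0.139 and 0.153 times in blood monocytes.

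The order of levels was not the same for the members. Il1a ran from healthy Kupffer cells at the top through NASH diet Kupffer cells and KN-RM, which overlapped each other, to Ly6CLow-RM, Ly6CHi-RM and blood monocytes, each below all libraries of the one before. For Il1b, healthy Kupffer cells stood alone at the top and blood monocytes at the bottom, and the 4 liver populations on the NASH diet lay between 68 and 92.3 CPM. For Tnf, which ran from 3.88 to 16.7 CPM, every neighbour in the order overlapped the next.

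In the 53 other genes of the cytokine, receptor and inflammasome pathways, 4 rose and 11 fell in NASH diet against healthy Kupffer cells in the population set, where 11.2% of all genes rose and 9.56% fell, with a median log2 change of -0.22 beside 0 for all genes. Osm, a cytokine of the interleukin-6 family, had 39 counts in NASH diet and 2 counts in healthy Kupffer cells (ratio 21.7 with a 95% counting interval from 5.61 to 185, adjusted p = 0.00305). The next largest rises were those of Il18r1, a chain of the interleukin-18 receptor (log2 1.51), and Pycard, the inflammasome adaptor ASC (0.99). Il1r2, the decoy interleukin-1 receptor (-2.04, adjusted p = 0.0373), Irak3, a brake on receptor signalling (-1.99), and Cd14, the lipopolysaccharide co-receptor (-1.4), had the largest falls. For Irak3 the gap rested on 1 healthy library, with 25.6 and 23.5 CPM in NASH diet Kupffer cells and 169 and 26.1 CPM in healthy Kupffer cells. In the time course Cd14 had 145, 216, 217 and 144 CPM at week 30 and 139, 144 and 179 CPM at week 0. Irak3 (22.1 to 66.4 CPM at week 30, 20.6 to 41.4 CPM at week 0) and Il1r2 (0.408 to 1.25 and 0.405 to 0.813 CPM) overlapped there as well. So did Pycard, with 36.1 to 39 CPM at week 30, inside the 27.1 to 39.5 CPM of week 0. At 30 weeks 9 rose and 9 fell of 52 tested, near the shares of all genes (15.5% rose and 15% fell), Osm again having the largest rise (2.48, adjusted p = 0.0346), with Il18r1 at 1.19 and Tnfaip3, an inhibitor of NF-kB, at 0.98. The largest falls at 30 weeks were in Il27 (-1.09), Tlr4, the lipopolysaccharide receptor (-1.02), and Txnip, which binds Nlrp3 (-1.01).

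Between KN-RM and blood monocytes 10 pathway genes were higher and 26 lower, where 34% of all genes were higher and 26.5% lower. Il12b and Il33 were at 0 counts in blood monocytes. With blood set to 3 counts the ratios of KN-RM to blood were 20.9 and 11.1, and Il18r1 followed (log2 3.36). The lower genes were led by Socs3, a feedback inhibitor of cytokine signalling (-3.92), Il1r2 (-2.57) and Mefv, the sensor pyrin (-2.38). By role, 1 was higher and 8 lower of 11 inflammasome genes, 3 higher and 6 lower of 11 receptors, 3 higher and 7 lower of 13 signalling genes, 0 higher and 4 lower of 11 NF-kB genes, and 3 higher and 1 lower of 7 other cytokines. In Ly6CLow-RM against KN-RM 15 were higher, led by Il1r2 (3.87), Il12b (2.42) and Socs3 (2.06), and 8 lower (15.3% and 18.1% of all genes), led by Il27 (-1.63), Il15 (-0.86) and Tnfrsf1a (-0.78). The list of 53 was written with earlier results of these data known and is given as a description.

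The genes most like each member were read from Pearson correlations of log2(CPM + 1) over the 29 libraries of the population set and time course, among 8792 genes with a mean of at least 10 CPM. The libraries were scaled together for this purpose only, share groups and come from 2 sets whose levels are offset, so r is also given within each set (12 and 17 libraries), all with no p. Il1rn was most like Mmp12 (r = 0.934), Slc7a2 (0.91) and Atp6v0d2 (0.907), and Il1b most like Ets2 (0.88), Vasp (0.856) and Gabbr1 (0.838). Il1a was closest to Cd38 (0.985), Slc40a1 and Rgl1, and Il18bp to Folr2 (0.99), a Kupffer cell marker of the list used here, Clec1b and Serpinb6a. Within the population set r was 0.863 to 0.892 for the 3 genes of Il1rn, 0.925 to 0.965 for those of Il1b, 0.991 to 0.995 for those of Il1a and 0.993 to 0.996 for those of Il18bp. Within the time course it was 0.952 to 0.97, 0.58 to 0.641, 0.512 to 0.816 and 0.286 to 0.46 in the same order, so that the likeness of Il18bp was mostly one across populations. Mmp12, a macrophage elastase, had a log2 change of 6.65 ± 0.33 in the population set (adjusted p = 8.02e-07) and 7.55 ± 0.86 at 30 weeks (1.06e-05).

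Casp1 was most like Pcnp (0.945), Smim15 (0.942) and Rnft1 (0.93), with r of 0.877 to 0.937 within the population set and 0.912 to 0.958 within the time course. At 30 weeks these had log2 changes of -1.18 (adjusted p = 0.000279), -0.89 (0.000269) and -0.66 (0.0018). In the population set, where Casp1 was not called either, they were at -0.5 (0.287), -0.1 (0.75) and -0.18 (0.586). Among the members themselves, Il1a and Il18bp were closest (r = 0.962, but 0.978 within the population set and 0.093 within the time course), followed by Il1a and Il18 (0.812, with 0.735 and 0.644 within the sets).

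In the KN-RM gate of the LXR set, 0 of the 9 genes tested were called between Cre-positive and Cre-negative mice (background 0.209%), while 5 had an unadjusted p under 0.05 and DESeq2 called 3, as did edgeR without the filter on low counts. LXR alpha and beta are sterol-sensing nuclear receptors that restrain inflammatory genes in macrophages. Nr1h3 and Nr1h2, which encode them, were not lower in Cre-positive libraries (log2 0.17 ± 0.28 and 0.79 ± 0.24), and counts over all exons need not show a floxed exon, so the deletion could not be checked and the libraries are named by their labels.

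Il1a had 66.4, 66.7 and 31.7 CPM in libraries labelled Cre-positive, against 254, 92.3 and 219 CPM in those labelled Cre-negative. The groups did not overlap, and the log2 difference was -1.78 ± 0.39 (adjusted p = 0.111 in edgeR and 0.000354 in DESeq2, and 0.0385 in edgeR without the second Cre-negative library). Il10 had 10.7, 9.01 and 5.77 CPM in Cre-positive libraries and 77.9, 9.04 and 41.4 CPM in Cre-negative libraries (-2.34 ± 0.63, adjusted p = 0.2, and 0.0338 without the second Cre-negative library). The second Cre-negative library lay within the reach of the Cre-positive ones for Il10 and nearest to them for Il1a. Leaving it out was bound to widen both gaps, so the adjusted p without it adds no support for either difference. Il18bp had 114, 298 and 174 CPM in Cre-positive libraries and 105, 59 and 91 CPM in Cre-negative ones (1.21 ± 0.34, adjusted p = 0.226 in edgeR and 0.0264 in DESeq2).

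The Cre-positive libraries had the same order for Timd4 as for Il18bp. The Cre-negative libraries did not, with 3.52, 5.71 and 16.4 CPM of Timd4 and 105, 59 and 91 CPM of Il18bp. In the population set Il1a, Il18 and Il18bp each had their highest means in the Kupffer cell gates. In Cre-positive libraries Il1a did not follow the order of Timd4. The log2 differences of Il1a (-1.78 ± 0.39) and Il18 (-0.63 ± 0.25) were opposite in sign to that of Il18bp (1.21 ± 0.34), all without a call. Kupffer cell markers summed to 2130 to 9400 CPM in Cre-positive and 3530 to 4710 CPM in Cre-negative libraries. Ly6C-high monocyte markers did not overlap, with sums of 175 to 248 CPM in Cre-positive libraries and 34.3 to 68 CPM in Cre-negative libraries, where Chil3 and Ly6c2 were at 0, and 1 of the 3 tested was called higher. Among them Ccr2 had 238, 159 and 173 CPM in Cre-positive and 49.3, 24.5 and 44.9 CPM in Cre-negative libraries. Their part in these differences was not tested. Il6 was left out by the filter, with 0, 4 and 1 counts in Cre-positive and 2, 5 and 9 counts in Cre-negative libraries.

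**Figure D5:**
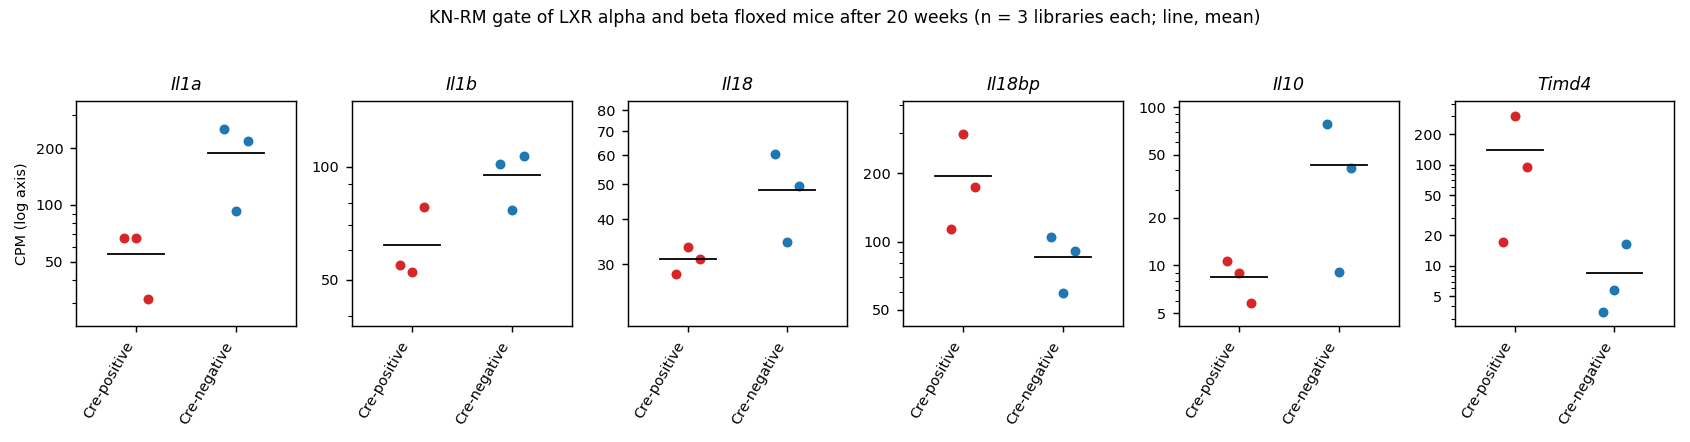
CPM on log axes (y) of Il1a, Il1b, Il18, Il18bp and Il10 and of the gate marker Timd4 in Cre-positive and Cre-negative libraries (x), with a point per library and a line at the mean. Il1a does not overlap between the groups and Timd4 reaches 304 CPM in a Cre-positive library of a Tim4-negative gate.

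In whole liver after 4 weeks of CDAHFD, the DTR label went with no change in any of the 8 genes tested (background 0.00%, 0 of the 8 with an unadjusted p under 0.05, 0 in DESeq2). Il1rn ran from 16.5 to 39.2 CPM with a median of 25.1 CPM in DTR-positive livers, and from 19.9 to 35.4 CPM with a median of 31.4 CPM in DTR-negative livers. Il1b ran from 1.14 to 8.03 CPM in DTR-positive livers and from 1.77 to 9.18 CPM in DTR-negative livers, a log2 difference of 0.13 ± 0.26. The other tested differences ran from -0.39 ± 0.34 (Tnf) to 0.21 ± 0.17 (Il1a). Il6 had 1 count in each group in all, and Il10 at most 4 counts in a library, and neither passed the filter.

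Clec4f was not called with the label either (0.13 ± 0.61, from 3.37 to 140 CPM in DTR-positive and from 1.37 to 118 CPM in DTR-negative livers). DTR-negative livers 6 to 9 had 6.05, 2.82, 3.31 and 1.37 CPM, and DTR-positive livers 2 and 3 had 11.6 and 3.37 CPM. All other livers of both labels had 27.2 CPM or more, so low Clec4f did not follow the label. Timd4 and Cd163 differed more than Clec4f without passing the adjusted threshold. Timd4 differed by -2.02 ± 0.62 (0.115 to 3.44 CPM in DTR-positive and 0.381 to 15.2 CPM in DTR-negative livers). Cd163, which is outside the list of 7 Kupffer cell markers, differed by -1.51 ± 0.53. They had unadjusted p of 0.00332 and 0.00925 and adjusted p of 1 in edgeR. The list of 7, with Timd4 in it, had a median log2 difference of -0.01, with 0 called. It summed to 236 to 606 CPM in DTR-positive and 306 to 816 CPM in DTR-negative livers. Per length, Il1rn exceeded Il1b in every liver, from 1.44 to 7.85 times in DTR-positive and from 1.87 to 6.62 times in DTR-negative livers.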

How the data were processed

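The authors deposited raw counts and TPM for 40458 RefSeq transcripts of mm10, made with HOMER over exons per the file headers. STAR, HOMER and DESeq2 are named in the submitters' processing notes, and their versions and roles, the strand setting and filters are not given in the sources used here. Per the labels' protocols, liver was digested with 1 µM flavopiridol present, which blocks transcription, and cells were sorted. All value columns were matched to libraries by title (0 left over). A read in a shared exon counts for each isoform, so 1 transcript per symbol was kept, the one with the highest total.

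The main test on the deposited counts was the two-sided quasi-likelihood test of edgeR (4.0.16, R 4.3.3) after TMM scaling and filterByExpr (min.count 10, min.total.count 15), with 1 fit per set over all its groups, 14407 genes in the population set, 14552 in the time course, 14470 for the trend, 14042 for the joint fit, 11480 in the LXR set and 12682 in whole liver. Every member that passed the filter was tested in each comparison, though the text does not give all of the uncalled ones. Where pathway genes are described, up to 3 per direction were named by size. Alternatives were DESeq2 1.42.0, limma 3.58.1 on log2(TPM + 1) and log2(TPM + 0.1) of the deposited TPM, RLE scaling, no filter, a replicate block, the second transcript, the compared pair alone and leaving out each library. Leaving out time points and the correlations within each set were added after seeing the data. The members, lists and tests were chosen with earlier results of these data known. TPM was used to compare genes with each other. Scripts were tested on simulated data.

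Replicates are numbered only, so p-values measure the spread between these libraries, which may be technical. No 2 replicates were duplicates (chi-square per degree of freedom 5.03 to 79.9 over 140 pairs). Shared replicate numbers did not meet the rule for pairing in any comparison. The rule needs 3 or more pairs, so with 2 pairs (the population set and weeks 1 and 4) it could not be met and does not decide on pairing. Counting intervals are exact (95%), and they and the floor of 3 counts cover counting error only.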

Additional observations from a re-analysis of the deposited data

Results flagged for a closer look

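Among the groups of 4 to 10 libraries, 20 gene and group pairs were checked for a library that stands apart. Chance alone gives this in about 1 of 20 where values follow a normal distribution, a rate that need not hold for genes at a few counts. Tnf had 0.221 CPM (1 count) in the second DTR-negative liver, while the other 9 ran from 1.64 to 3.14 CPM. Il6 had 0.149 CPM (1 count) in the first DTR-negative liver and 0 counts in the other 9. A group with 1 count in all is flagged whichever library holds it.

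In some genes all libraries of 1 diet time lay above the mean of the controls and all of another below it. These differences between times were not tested, and all times of the course share their week 0 libraries. For Il1a, week 1 had a log2 difference from week 0 of 0.52, and the later weeks differed from week 1 by -1.12 (week 4), -0.85 (week 10), -1.21 (week 20) and -1.16 (week 30) on that scale. The diet difference of Il1a in the population set was -0.85, and week 1 lay above it by 1.36. Il18 had 0.5 at week 1 and 0.22 at week 10, against -0.46 in the population set, gaps of 0.96 and 0.68. Set against week 1, Il18 was at -0.93 at week 20 and -1 at week 30, and set against week 10, at -0.65 and -0.72. Il18bp had 0.6 at week 1 and -0.32 at week 10, a gap of -0.92, and week 30 lay 0.6 above week 10.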

How the results depend on the processing

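Of the 44 calls of single members over all comparisons, 28 were kept under every alternative, and 16 were lost under at least 1. No called member reversed its direction. Among all uncalled tests of single members, 71 refits changed sign, and 62 passed the threshold without a change of sign. The number of the 10 genes called ranged, when single libraries were left out, from 2 to 6 for NASH diet against healthy Kupffer cells, 3 to 4 for Ly6CLow-RM against KN-RM, 1 to 2 for Ly6CLow-RM against Ly6CHi-RM, 0 to 1 at week 1, 0 to 2 at week 4, 1 to 2 at week 10, 4 to 7 at week 30, 3 to 6 for the trend, 0 to 1 for the joint fit and 0 to 2 in the LXR set. With the compared pair alone, NASH diet against healthy Kupffer cells gave 3, week 4 gave 2 and week 10 gave 1. RLE scaling and limma at either pseudocount gave 3 for Ly6CLow-RM against KN-RM. At either pseudocount limma gave 0 at week 1, 2 at week 4, 1 at week 10 and 8 at week 20. DESeq2 and the fit without a filter each gave 2 at week 1, 2 at week 4, 1 for the joint fit and 3 in the LXR set. The trend gave 2 without week 1 and 1 without week 30. The causes were not tested, apart from the smaller number of libraries where some were left out. Deposited TPM is not rescaled between libraries, and in limma the median of all genes shifted by up to -0.23 (week 30) and 0.223 (Ly6CLow-RM against KN-RM) with a pseudocount of 1, and by up to -0.289 and 0.303 with 0.1.

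Replicate numbers shared between groups did not meet the rule for pairing, which needs 3 or more pairs that each correlate by over 0.1. In the population set the 2 shared numbers give 1 correlation per comparison, from -0.07 to 0.494 and over 0.1 in 4 of 6, and at week 1 the 2 pairs had 0.105 and 0.153. With a replicate block the count was 0 at week 1, the call of Il18bp being lost, 6 at week 20 (Il10 gained) and 6 at week 30, 9 for KN-RM against blood monocytes (Tnf and Il6 gained), 6 for Ly6CHi-RM against blood monocytes (Il10 gained) and 3 for Ly6CLow-RM against Ly6CHi-RM (Tnf gained). In the trend it stayed at 5, Il10 being gained and Il1b lost. Depth limited Il6 and Il10, which fell under the filter in whole liver, and Il6 in the LXR set.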
